A study of Saccharomyces cerevisiae with 6 samples.

Results

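The replication profile of *pol2-REL* cells 40 min after release from G1 was compared with that of wild-type cells 30 min after release, over the 1 kb windows listed in both profiles. Of the 12070 windows that do not overlap (those that start 1 base after a multiple of 1000), 11510 were listed for both samples and 560 were not. Both strains are budding yeast of the W303 background and were grown at 24 °C, arrested in G1 with alpha-factor and released into S phase with pronase. Both carry an HA-tagged Pol2 at its own locus: the wild type is Pol2-3HA::KAN and the mutant is pol2-REL-3HA::KAN, whose 3 substitutions are R567C, E611K and L621F. The labels give 1 strain identifier for all libraries of a genotype, which were taken in G1 and at 30 and 40 min, with 1 library for each of the 6 conditions. No difference below therefore has a replicate check and no p-value is given. Errors and 95% intervals cover the counting of reads only and not the variation between cultures.

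Pol2 is the catalytic subunit of DNA polymerase ε, which makes most of the leading strand. Before it does so, it joins the complex with Dpb11, Sld2 and GINS that helps to turn a licensed origin into a pair of active helicases (CMG, made of Cdc45, Mcm2-7 and GINS). Origins are licensed in G1 and fire in a typical order through S phase, and the regions next to chromosome ends are mostly copied late. A locus that has been copied in more of the cells has more DNA, so in a profile of copy number an active origin is a peak, and the forks that leave it fill in its flanks and make the peak wider.

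The measurement was the relative copy number, in which the authors divided the S phase reads of a window by its G1 reads and then set the mean of every chromosome to 1. It shows how far a locus is ahead of or behind the rest of its chromosome, and it holds no level for the genome as a whole. The windows held 40161464 reads in wild type at 30 min and 32534281 in *pol2-REL* at 40 min, and 30741752 and 19156804 reads in the wild-type and *pol2-REL* G1 libraries. Counting errors take every read as independent, and nothing in the sources used here says whether the mates of a pair were counted separately. The G1 libraries were not equally even. On chromosomes over 700 kb, the depth of windows 20 to 100 kb from an end, relative to windows over 300 kb from an end, was 1.32 in the wild-type G1 library but 1.12 in that of *pol2-REL*. Relative to the median window, chromosome I was at 1.75 and 1.08. For this reason values are given with each genotype over its own G1 library, as deposited, and the main results also with every sample divided by the *pol2-REL* G1 library. A common G1 library leaves any unevenness of the S phase libraries in place. Their near-end depth was 1.22 in wild type at 30 min, 1.09 in wild type at 40 min and 1.20 in *pol2-REL* at 40 min. Those depths also include what had been copied, and the 2 parts were not told apart.

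A plain delay means that the *pol2-REL* profile at 40 min equals a wild-type profile from an earlier moment of S phase. The wild-type profile at 40 min was used to give the direction of change, and the delay profile was placed between wild type at 30 min (a fraction of 0) and wild type at 40 min (a fraction of 1), with running means over 5 kb. The best fraction over all 11479 windows with a value was 0.397 (95% counting interval 0.392 to 0.402), which on a linear clock is wild type at 34.0 min. With the *pol2-REL* G1 library for every sample it was 0.510 (0.505 to 0.515), or 35.1 min. Thus the best-fitting place of *pol2-REL* at 40 min was between the wild-type times, and the choice of G1 library moved this place more than the counting error.

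The spread of the profile lay between those of the wild-type profiles too. The SD of relative copy number along the genome was 0.0809 in wild type at 30 min, 0.129 in *pol2-REL* at 40 min and 0.180 in the wild type at 40 min. Over the *pol2-REL* G1 library these values were 0.0858, 0.129 and 0.165. *pol2-REL* at 40 min had a wider spread than wild type at 30 min on 16 of 16 chromosomes, and a narrower one than wild type at 40 min on 13, under either reference. The exceptions were chromosomes III, IX and XIV.

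A single delay accounted for only part of the difference. It removed 30.6% of the summed squared difference between *pol2-REL* at 40 min and wild type at 30 min, and 59.3% with the *pol2-REL* G1 library. The departures that were left had an SD of 0.0960 and 0.0676, against a median counting error of 0.0173 and 0.0179. Across windows, which are not independent, the *pol2-REL* profile at 40 min had a Pearson correlation of 0.477 with wild type at 30 min, 0.656 with wild type at 40 min and 0.717 with *pol2-REL* at 30 min. The last of these shares its G1 library with the profile it was set against. With the *pol2-REL* G1 library in all of them the correlations were 0.579, 0.779 and 0.717.

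At a limit of 0.10 most windows lay on the delay profile. A window was counted as off it when the departure was at least 0.10 of relative copy number and at least 3 times its counting error. By this rule 71.2% of the windows were on the delay, 15% were higher in *pol2-REL* than the delay gives (1727 windows) and 13.7% were lower (1575). The limit matters, since only 38.6% of windows were within 0.05 of the delay (57.6% with the *pol2-REL* G1 library). Under the second reference, the *pol2-REL* G1 library, 7.96% were higher (914) and 4.89% were lower (561). Both references called 743 windows higher (6.47%) and 408 lower (3.55%), no window was called in opposite directions, and 7853 windows (68.4%) were called under neither. The higher windows found under both were 43.0% of those found with each genotype's own G1 and 81.3% of those found with the *pol2-REL* G1. For lower windows the shares were 25.9% and 72.7%. Against wild type at 30 min itself, with no delay, 18.2% of windows were higher and 19.9% lower, or 16.7% and 12.5% with the *pol2-REL* G1 library.

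Early and late windows moved apart as a delay gives. The windows were put into 10 groups of equal size by their mean level in wild type at 40 min and *pol2-REL* at 30 min. These 2 libraries are not the ones compared, although wild type at 40 min also enters the delay. Each was divided by the same G1 library as a compared sample, so the grouping is not independent of the comparison. In the earliest group the mean relative copy number was 1.11 in wild type at 30 min, 1.24 in *pol2-REL* at 40 min and 1.20 in the delay profile. This group was 0.0349 above the delay, and 0.0339 above it with the *pol2-REL* G1 library. In the latest group the levels were 0.934 in wild type at 30 min, 0.849 in *pol2-REL* at 40 min and 0.872 in the delay profile, a departure of -0.0229. Over the *pol2-REL* G1 library that departure was -0.00122. The earliest windows were thus above a plain delay with either library, and the latest windows below it with only one of them.

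**Figure D1:**
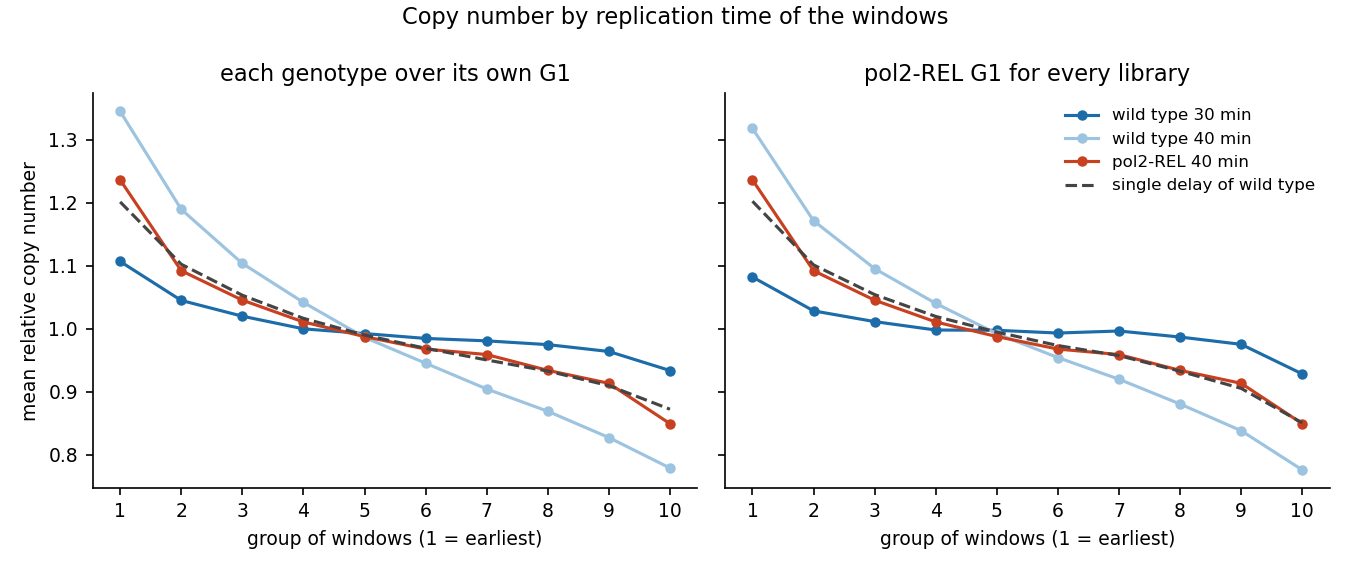
Mean relative copy number (mean of 1 on each chromosome) of 10 groups of windows, ordered from the earliest (1) to the latest (10), for both wild-type times, for *pol2-REL* at 40 min and for a single delay of wild type (dashed), with each genotype over its own G1 library (left) and with the *pol2-REL* G1 library for every sample (right). *pol2-REL* at 40 min follows the dashed line and is above it in the earliest group, by 0.0349 on the left and 0.0339 on the right.

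The departures followed the distance from the chromosome ends when each genotype was divided by its own G1. The mean departure was 0.118 in the 245 windows 10 to 20 kb from an end and 0.0798 in the 1554 windows at 50 to 100 kb. It was -0.0582 in the 3514 windows over 300 kb from an end. Dividing every sample by the *pol2-REL* G1 library changed these means to 0.0352, 0.019 and -0.0110. The share of windows called higher at 10 to 20 kb fell from 63.3% to 31.8%, and the share called lower beyond 300 kb fell from 26.5% to 5.41%. Most of the excess near ends therefore went with the G1 library used, and a smaller excess was left at 10 to 100 kb. The outermost 10 kb, with 150 windows, had a mean departure of 0.0764 with the own G1 libraries and 0.00124 with the *pol2-REL* G1.

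**Figure D2:**
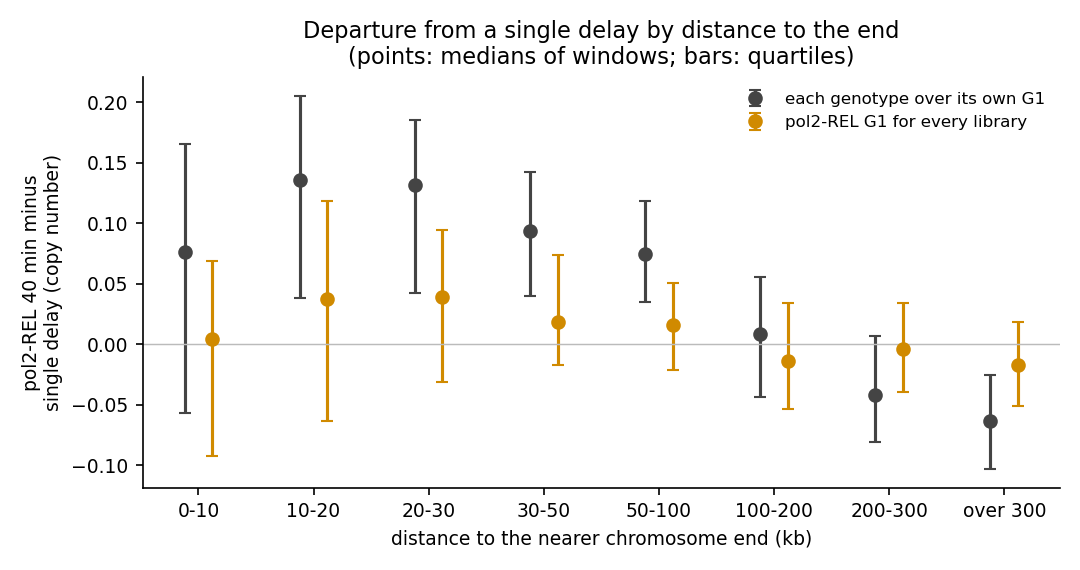
Departure of *pol2-REL* at 40 min from a single delay, in units of relative copy number, by distance to the nearer chromosome end in kb. Points are medians over windows and bars are quartiles. With each genotype over its own G1 (grey) the medians are above 0 up to 200 kb from an end and below 0 beyond. Those with the *pol2-REL* G1 for every sample (orange) are closer to 0 at every distance but 100 to 200 kb.

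Chromosomes differed in their delay fraction. The fraction was lowest on chromosome IV, the longest, at 0.188 (counting SE 0.00578), and highest on chromosome IX at 0.927 (SE 0.0140). Under the other reference chromosome IV was at 0.389 and chromosome IX at 0.908, and chromosome VIII was then the lowest at 0.355. Chromosome IX in *pol2-REL* at 40 min thus had the slope closest to wild type at 40 min under either reference. It was not a close match, since its departures from its own delay had an SD of 0.125, or 0.103 with the *pol2-REL* G1. The SD along chromosome IX was 0.0724 in wild type at 30 min, 0.176 in *pol2-REL* at 40 min and 0.151 in the wild type at 40 min. Since each chromosome has a mean of 1, these fractions compare the shape of the profile within a chromosome and not how much of it was copied.

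**Figure D3:**
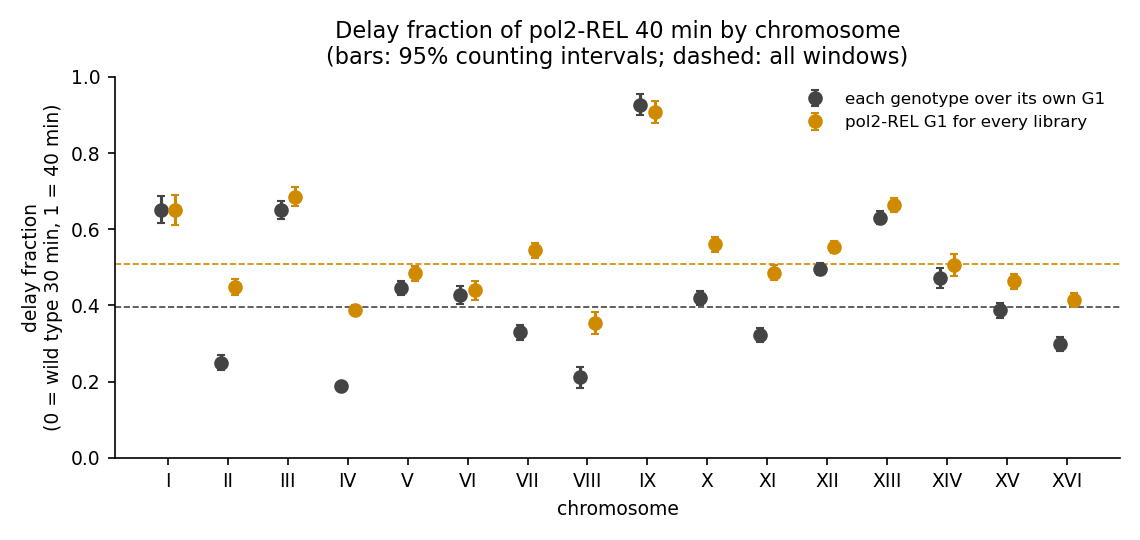
Delay fraction of *pol2-REL* at 40 min for each of the 16 chromosomes, where 0 is wild type at 30 min and 1 is wild type at 40 min. Bars are 95% counting intervals and dashed lines are the fractions over all windows, 0.397 with each genotype over its own G1 (grey) and 0.510 with the *pol2-REL* G1 for every sample (orange). Chromosome IX stands highest under both.

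Peak shape was measured at 194 origins, taken as maxima of the mean smoothed relative copy number of the 4 S phase libraries, at least 10 kb apart, at least 20 kb from an end and with a prominence of at least 0.04. Genome positions are those of the SacCer2 build, and the origins carry no names here because no annotation of that build was at hand. They were ranked by their level in wild type at 40 min and *pol2-REL* at 30 min and split into 65 early, 64 middle and 65 late origins. Of all of them, 41 had a missing window within 20 kb. Because the positions used all 4 profiles, the compared samples had some part in choosing them. The libraries used for ranking also share their G1 libraries with the compared samples. The height of a peak is the mean of its central 3 windows divided by its flanks at 15 to 20 kb, minus 1, and its width is taken at 50% of the rise from the lowest value on either side.

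Early origins stood out in *pol2-REL* at 40 min and were higher than a delay gives. The central level of their average profile was 1.21 in wild type at 30 min, 1.32 in *pol2-REL* at 40 min, 1.40 in wild type at 40 min and 1.29 in the delay profile. *pol2-REL* exceeded the delay by 0.0337 (counting SE 0.00367), and by 0.0422 with the *pol2-REL* G1 library. The height over the flanks was 0.276 in wild type at 30 min, 0.310 in *pol2-REL* at 40 min and 0.255 in the wild type at 40 min. The ratio of *pol2-REL* at 40 min to wild type at 30 min was 1.12 (95% counting interval 1.09 to 1.16), or 1.09 with the *pol2-REL* G1 library. That ratio turned to 0.904 with flanks at 10 to 15 kb, which were at 0.957 in wild type at 30 min and 1.06 in *pol2-REL* at 40 min. With those flanks the heights were 0.270 in wild type at 30 min, 0.244 in *pol2-REL* at 40 min and 0.179 in the wild type at 40 min. Against the delay the ratio of heights was 1.16 (1.13 to 1.20), or 1.14 with the *pol2-REL* G1 library, and with the nearer flanks *pol2-REL* (0.244) was still above the delay (0.229). A wild-type sample from between 30 and 40 min was not analysed here, so a true wild-type height at that moment is not known.

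Late origins went the other way. Their central level was near 1 in every profile, at 1.06 in wild type at 30 min, 1.05 in *pol2-REL* at 40 min and 1.05 in the wild type at 40 min. Relative to wild type at 30 min, the gains in height went with lower flanks. The flanks were at 0.986 in wild type at 30 min, 0.944 in *pol2-REL* at 40 min and 0.867 in the wild type at 40 min. The height was 0.0788 in wild type at 30 min, 0.108 in *pol2-REL* at 40 min, 0.127 in the delay profile and 0.210 in wild type at 40 min. *pol2-REL* was thus above wild type at 30 min, with a ratio of 1.37 (1.27 to 1.47), and below the delay, with a ratio of 0.850 (0.799 to 0.902). Over the *pol2-REL* G1 library these ratios were 1.38 and 0.768. Against the delay, the late *pol2-REL* centre departed by -0.0111 (counting SE 0.00295) and the flanks by 0.00612 (SE 0.00134). These departures were -0.0233 (SE 0.00318) and 0.00666 (SE 0.00143) with the *pol2-REL* G1 library. At middle origins the height was 0.187 in wild type at 30 min, 0.213 in *pol2-REL* at 40 min and 0.207 in the delay profile. The ratio to the delay was 1.03 (0.991 to 1.06), an interval that includes 1, and it was 0.983 with the *pol2-REL* G1 library.

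**Figure D4:**
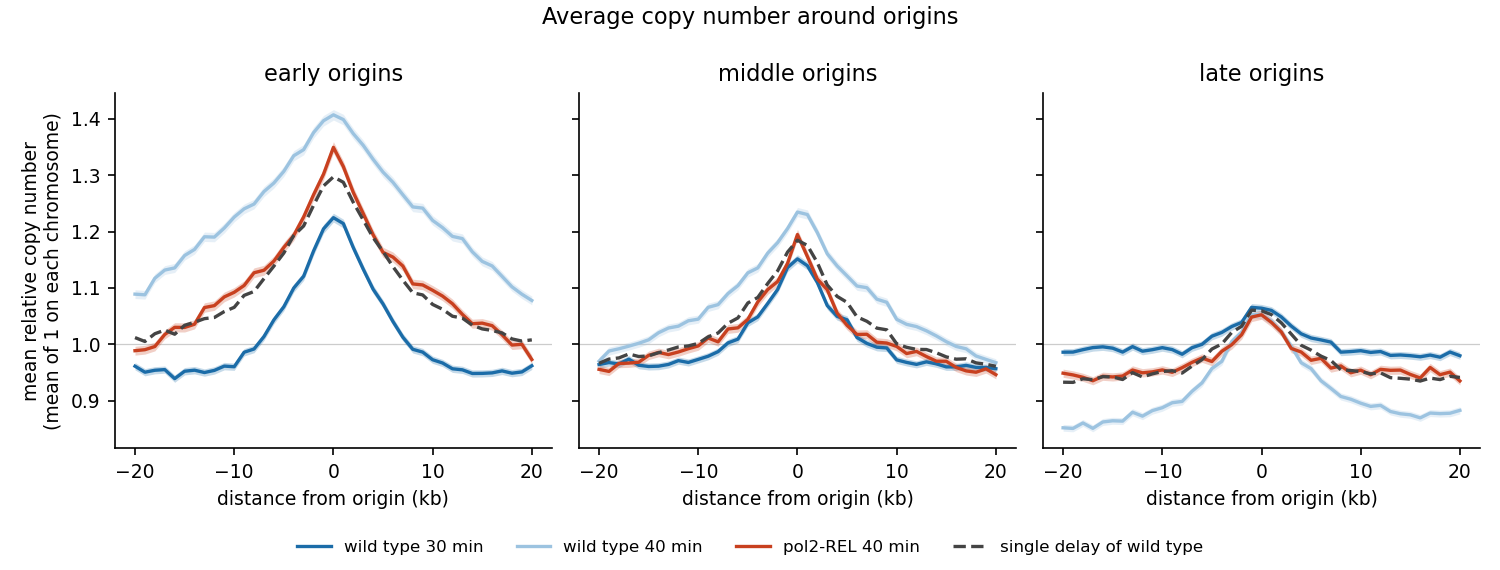
Mean relative copy number (mean of 1 on each chromosome) against the distance from the origin in kb for 65 early, 64 middle and 65 late origins, with each genotype over its own G1. Lines are wild type at 30 min, wild type at 40 min, *pol2-REL* at 40 min and a single delay of wild type (dashed), and shading is the 95% counting interval. The *pol2-REL* peak at early origins is taller than the dashed line at its centre (1.32 against 1.29 over the central 3 windows), and at middle and late origins it is narrower than the dashed line.

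Width separated the classes as well. At early origins the average peak was 9.32 kb wide in wild type at 30 min, 12.1 kb in *pol2-REL* at 40 min, 11.3 kb in the delay profile and 17.6 kb in wild type at 40 min. *pol2-REL* was wider than wild type at 30 min by 2.81 kb (2.01 to 3.62), or by 3.40 kb with the *pol2-REL* G1 library. It differed from the delay by 0.825 kb (-0.00166 to 1.65), or by 0.156 kb with that library. At middle origins the widths were 7.87 kb in wild type at 30 min, 8.54 kb in *pol2-REL* at 40 min and 10.4 kb in the delay profile. The middle *pol2-REL* peak was thus narrower than the delay gives, by -1.83 kb (-2.32 to -1.33), or by -0.957 kb with the *pol2-REL* G1 library. At late origins the widths were 7.72, 7.02 and 8.86 kb in the same order, and *pol2-REL* differed from the delay by -1.84 kb (-3.57 to -0.115), or by -2.52 kb with that library. Against wild type at 30 min the late peak differed by -0.700 kb, with an interval from -2.35 to 0.952 kb that includes 0.

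The form of the flanks was compared as the share of the height left at a distance. At 5 kb from an early origin 50.6% of the peak was left in *pol2-REL* at 40 min, against 44.6% in wild type at 30 min and 53.8% in the delay. At middle origins it was 38.5% in *pol2-REL*, 43.5% in wild type at 30 min and 50.1% in the delay. With the *pol2-REL* G1 library the last pair became 36.0% and 44.9%, so *pol2-REL* was below the delay under either reference and its order against wild type at 30 min turned. At late origins 25.5% was left in *pol2-REL*, 35.0% in wild type at 30 min and 43.8% in the delay. With that library the late shares were 31.7% in wild type at 30 min and 43.6% in the delay, so the late *pol2-REL* peak kept less of its height at 5 kb than either. At 10 kb, 27.1% of the early peak was left in *pol2-REL* and 18.8% in the delay, or 20.6% in the delay with the *pol2-REL* G1. The middle peak had 17.8% left in *pol2-REL*, against 14.1% in the delay with the own G1 libraries and 18.3% with the *pol2-REL* G1, so its order depended on the reference. The average *pol2-REL* peak's left and right sides were of like width, at 5.68 and 6.45 kb for early, 4.54 and 4.00 kb for middle and 3.72 and 3.30 kb for late origins. Left and right follow the chromosome, so an average over origins cannot show whether the forks of a single origin moved unevenly. The sides of single origins are not compared here.

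Widths of single origins were taken on the authors' smoothed values, with each genotype over its own G1. *pol2-REL* at 40 min was wider than wild type at 30 min at 52 of 57 early origins, 36 of 57 middle origins and 30 of 59 late origins for which both widths could be measured. The median early width was 12.6 kb in wild type at 30 min, 16.0 kb in *pol2-REL* at 40 min, 14.7 kb in the delay and 19.1 kb in wild type at 40 min. The median late width was 12.5 kb in wild type at 30 min, 12.8 kb in *pol2-REL* at 40 min and 12.9 kb in the delay. Against the delay, *pol2-REL* was narrower at 21 of 57 early, 36 of 58 middle and 32 of 59 late origins, with median differences of 1.11, -0.338 and -0.365 kb. At middle and late origins these differences are smaller than those of the average profiles. These widths are not on the scale of the average profiles, which used values without the authors' smoothing.

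Heights of single origins were above the delay at 46 of 65 early, 36 of 64 middle and 28 of 65 late origins. The gap was more than 3 counting errors above at 11 early, 7 middle and 3 late origins, and more than 3 below at 0 early, 5 middle and 12 late origins. Under the other reference the origins above were 4 early, 1 middle and 1 late, and those below were 1 early, 6 middle and 11 late. The count of late origins below the delay thus changed little with the reference, and that of early origins above it fell. In all, 156 of 194 origins were within 3 counting errors of the delay. The median early height was 0.291 in wild type at 30 min, 0.336 in *pol2-REL* at 40 min and 0.254 in the wild type at 40 min, and *pol2-REL* exceeded both wild-type times at 29 of the early origins. At late origins the medians were 0.0657, 0.0821 and 0.219 in the same order, and 20 late origins were lower in *pol2-REL* than at both wild-type times.

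**Figure D5:**
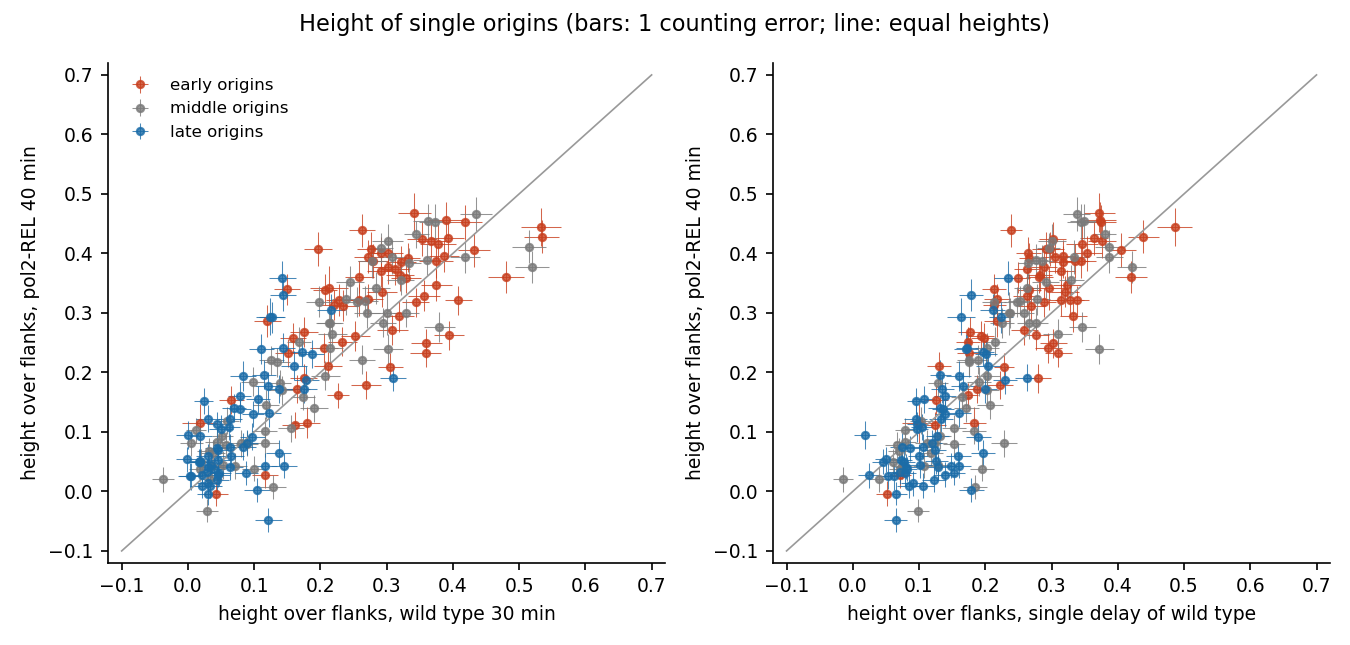
Height over the flanks of each of 194 origins in *pol2-REL* at 40 min (vertical) against wild type at 30 min (left) and against a single delay of wild type (right), for early (red), middle (grey) and late (blue) origins. Bars are 1 counting error and the line marks equal heights. On the right, 46 of 65 early origins are above the line and 28 of 65 late origins are.

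By level rather than height, the central window was off the delay at 30 origins above (15.5%) and 37 below (19.1%), against 15% and 13.7% of all windows. The origins above were 11 early, 10 middle and 9 late, and those below were 7 early, 15 middle and 15 late. All windows are not matched to origins in level, for these counts or those that follow. In the earliest of the 10 groups of windows, 26.3% were called higher and 13.3% lower. For early origins these shares were 16.9% and 10.8%. Both references called 18 origins above (9.28%) and 18 below (9.28%), against 6.47% and 3.55% of all windows. Of the 18 above, 10 were early and 2 late, and of the 18 below, 5 were early and 4 late. At 115 of 194 origins (59.3%) neither reference called the centre off the delay, against 68.4% of all windows.

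The early origins furthest above the delay were in regions that were high as a whole. On chromosome XV, the origin at the window from 1054001, 36.8 kb from the end, had a central level of 1.14 in wild type at 30 min, 1.53 in *pol2-REL* at 40 min and 1.09 in the wild type at 40 min. It was 0.411 above the delay (counting SE 0.0280), or 0.279 with the *pol2-REL* G1 library. Its height over its own flanks was 0.344 in wild type at 30 min and 0.318 in *pol2-REL*, so the flanks had risen with the centre. The origin at 411001 of chromosome IX, 28.4 kb from the end, was at 1.19 in wild type at 30 min, 1.67 in *pol2-REL* at 40 min and 1.37 in the wild type at 40 min. It was 0.407 above the delay (SE 0.0292), or 0.309 with the *pol2-REL* G1. In *pol2-REL* at 30 min these origins were already at 1.33 and 1.42, higher than in wild type at either time, except that over the *pol2-REL* G1 library the chromosome IX origin was at 1.45 in wild type at 40 min.

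At 900001 of chromosome XIII, 23.9 kb from the end, the level was 1.06 in wild type at 30 min, 1.57 in *pol2-REL* at 40 min and 1.52 in the wild type at 40 min. It was 0.322 above the delay (SE 0.0296), or 0.226 with the *pol2-REL* G1, and so close to wild type at 40 min. The origin at 73001 of chromosome III, 73.5 kb from an end, was at 1.05 in wild type at 30 min, 1.43 in *pol2-REL* at 40 min and 1.24 in the wild type at 40 min. This one was also taller over its own flanks, with a height of 0.263, 0.439 and 0.212 in the same order, the largest gain of height over the delay among the 194 origins. That gain was 0.199, or 0.127 with the *pol2-REL* G1, where it was no longer the largest, and 6 windows were missing within 20 kb. The middle origin at 844001 of chromosome XVI was 0.239 above the delay (SE 0.0427), but 12 windows were missing within 20 kb of it.

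The origins furthest below the delay lay away from the chromosome ends, the nearest at 250.0 kb. The origin at 326001 of chromosome II, an early one, was at 1.19 in wild type at 30 min, 1.05 in *pol2-REL* at 40 min and 1.47 in the wild type at 40 min. Its departure was -0.249 (SE 0.0263), or -0.146 with the *pol2-REL* G1, but its height over its own flanks (0.205 in wild type at 30 min, 0.241 in *pol2-REL*) was not lower than in wild type at 30 min. The origin at 416001 of chromosome XI was at 1.07 in wild type at 30 min, 1.00 in *pol2-REL* at 40 min and 1.44 in the wild type at 40 min. Its height was 0.129 in wild type at 30 min, 0.00770 in *pol2-REL* and 0.255 in wild type at 40 min. No peak over the flanks was left there in *pol2-REL* beyond its counting error.

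The late origin at 450001 of chromosome XIV had no height over those flanks beyond counting error in *pol2-REL* either, and no width could be measured there. Its level was 1.13 in wild type at 30 min, 0.894 in *pol2-REL* at 40 min and 1.15 in the wild type at 40 min, and its height was 0.104, 0.00271 and 0.311. With the *pol2-REL* G1 library these heights were 0.0509 (SE 0.0203), 0.00290 and 0.248. In *pol2-REL* at 30 min its height was -0.0184 (SE 0.0203). Its departure in level was -0.245 (SE 0.0228), or -0.136 with the *pol2-REL* G1. The late origin at 412001 of the same chromosome was at 1.12 in wild type at 30 min, 0.952 in *pol2-REL* and 1.26 in wild type at 40 min, with a departure of -0.224, or -0.160 with the *pol2-REL* G1. The middle origin at 511001 of chromosome XVI was at 1.22, 1.07 and 1.38 in the same order, with a departure of -0.215, or -0.115. Each of these 5 was called low under both references.

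Other origins followed the delay closely. The early origin at 204001 of chromosome X was at 1.34 in wild type at 30 min, 1.43 in *pol2-REL* at 40 min and 1.54 in the wild type at 40 min, against 1.42 in the delay profile. The early origin at 237001 of chromosome II was at 1.23, 1.38 and 1.59 in the same order, and its departure was 0.00630, or 0.0634 with the *pol2-REL* G1. That at 257001 of chromosome II was at 1.11, 1.23 and 1.41, with a departure of 0.000861. The middle origins nearest to the delay were at 342001 of chromosome IX, 133001 of chromosome VIII and 163001 of chromosome VII, and the last was called low with the *pol2-REL* G1 library. The nearest late origins were at 246001 of chromosome IX, 227001 of chromosome XIII and 583001 of chromosome XI. These were chosen for their small departure, which is at most 0.0105 in size and well within counting error.

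Peaks called in each profile alone showed how far the same sites were called. There were 202 peaks in wild type at 30 min, 180 in *pol2-REL* at 40 min and 230 in the wild type at 40 min. Of the *pol2-REL* peaks, 143 (79.4%) had a peak of wild type at 30 min within 3 kb, which is 70.8% of the wild-type peaks, at a median distance of 1 kb. Against wild type at 40 min, 152 *pol2-REL* peaks (84.4%) were matched. The 37 *pol2-REL* peaks without a partner at 30 min were small, with a median prominence of 0.0631 against 0.241 for matched ones. Between the wild-type times, 32 of the 202 peaks at 30 min also had no partner at 40 min, with a median prominence of 0.0611. At early origins 63 of 65 had a peak of their own in each of the compared samples. At late origins 46 of 65 had one in wild type at 30 min, 48 in *pol2-REL* at 40 min and 65 in the wild type at 40 min. Late origins with a peak in only one of the compared samples were 15 in *pol2-REL* and 13 in wild type. The called late sets were thus of like size but not the same. Late peaks were low, with median heights of 0.0657 in wild type at 30 min and 0.0821 in *pol2-REL* at 40 min. Whether different late sites were used was not tested.

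Between origins, forks meet and copying is latest. At 177 of 178 such valleys with a value, the mean relative copy number was 0.954 in wild type at 30 min, 0.908 in *pol2-REL* at 40 min, 0.905 in wild type at 40 min and 0.934 in the delay profile. The mean departure was -0.0267, with 122 valleys below the delay. Of the valleys, 22 were called low (12.4%, against 13.7% of all windows) and 13 high (7.34%, against 15% of all windows). With the *pol2-REL* G1 library the mean was -0.00502, with 108 below. Then 3 were called low (1.69%, against 4.89% of all windows) and 5 high (2.82%, against 7.96%). Under that library valleys were called off the delay less often than all windows.

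Off-delay windows were joined over gaps of up to 3 kb into 113 higher and 160 lower regions. Of the higher regions 69 had their middle within 100 kb of a chromosome end, and of the lower regions 8, while 25.1% of all windows lie that near to an end. Of the regions called under both references it was 23 of 55 higher and 4 of 53 lower. The 6 longest higher regions were on chromosomes XIV (7001 to 97000), IV (88001 to 157000), X (662001 to 728000), XVI (885001 to 944000) and XV (1023001 to 1080000 and 1 to 52000). In the chromosome XIV region the mean level was 1.03 in wild type at 30 min, 1.25 in *pol2-REL* at 40 min and 1.05 in the wild type at 40 min, a departure of 0.212 (counting SE 0.00469), or 0.107 with the *pol2-REL* G1. At the right end of chromosome XV it was 0.914, 1.22 and 0.950 in the same order, a departure of 0.289, or 0.167. At the right end of chromosome XVI it was 0.929, 1.14 and 0.983, a departure of 0.194, or 0.127. In these 3 regions, and in that of chromosome X, *pol2-REL* at 40 min was above both wild-type times under either reference. No point on a straight line between the wild-type times gives this. The true wild-type level between those times is not known. The regions on IV, on X and at the left end of XV had departures of 0.125, 0.140 and 0.145, which were 0.0576, 0.0516 and 0.0113 with the *pol2-REL* G1.

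The 6 longest lower regions were on chromosomes XIV (344001 to 428000), XIII (500001 to 571000), II (290001 to 353000), III (123001 to 183000), XII (708001 to 758000) and XV (355001 to 397000). On chromosome III the level was 0.990 in wild type at 30 min, 0.863 in *pol2-REL* at 40 min and 1.04 in the wild type at 40 min. Its departure of -0.147 (SE 0.00469) was nearly the same, -0.133, with the *pol2-REL* G1. On chromosome XII it was 1.05, 0.999 and 1.25 in the same order, with departures of -0.130 and -0.105. The others had departures of -0.155 (XIV), -0.138 (XIII), -0.154 (II) and -0.130 (XV), which were -0.0796, -0.0701, -0.0986 and -0.0740 with the *pol2-REL* G1. All 12 named regions kept their sign under that reference, and 3 higher and 2 lower ones kept a mean departure of at least 0.10.

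Regions called under both references, picked after their values had been seen, numbered 55 higher and 53 lower. On chromosome XII, regions on either side of the rDNA, from 412001 to 451000 and from 489001 to 525000, were above the delay by 0.167 and 0.174, or 0.15 and 0.226 with the *pol2-REL* G1. The second of them was at 1.24 in wild type at 30 min, 1.47 in *pol2-REL* at 40 min and 1.38 in the wild type at 40 min. On chromosome III, 45001 to 83000 was above it by 0.185, so this chromosome held both a high and a low region. On chromosome IV, 477001 to 514000 was at 0.952 in wild type at 30 min, 0.950 in *pol2-REL* at 40 min and 1.41 in the wild type at 40 min. It was at the level of wild type at 30 min, a departure of -0.185 (SE 0.00689), or -0.171 with the *pol2-REL* G1. This region held early origins at 482001 and 505001, whose central levels were 1.05 and 1.07 in *pol2-REL* at 40 min and 1.51 and 1.56 in wild type at 40 min.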

How the data were processed

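Genomic DNA of 6 conditions was sequenced by the authors as paired-end reads. The submitters' processing notes name Cutadapt, BWA 0.7.8 and Picard 1.110. Reads were mapped to SacCer2 and summed into 1 kb bins that start every 500 bases, after repetitive sequence had been left out, and the read counts were deposited without normalization. Each S phase library also has 3 columns deposited as a ratio: S phase over G1 counts, the same multiplied by 1 factor per chromosome so that every chromosome averages 1, and the authors' smoothing of that. The recomputed ratio differed from the deposited one by at most 0.0005. The study's methods describe a genome-wide mean and an adjustment by DNA content, which the deposited values do not hold. Listed bins had at least 602 reads in both libraries of a wild-type ratio and 605 of a *pol2-REL* ratio.

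From these files, running means over 5 windows (at least 3 present) were taken. The delay fraction was the least squares slope, through 0, of *pol2-REL* 40 min minus wild type 30 min on wild type 40 min minus wild type 30 min. Counting errors came from Poisson counts by the delta method, and intervals are 1.96 errors on either side. Named loci were the 6 longest regions and the 5 origins with the largest departure in each direction, the 3 origins closest to the delay in each class, and the chromosomes with the highest and lowest fraction. Some loci were named after their values were seen. They were the origin with the largest gain of height and the origins without height over their flanks in *pol2-REL*. The origins of the chromosome IV region and the regions called under both references were also named in this way. Members, lists and classes were chosen with earlier results of these data known. With 1 library per condition no test was run. Scripts were tested on simulated data. Alternatives changed the G1 reference, scaling, running mean, column, grid, filter on low counts, chromosome ends, delay model, threshold, origin positions, flanks and missing windows. Subtracting a running median, leaving out the rDNA and requiring both references were added after the data were seen. SciPy 1.17.1, pandas 2.3.3, numpy 2.4.6 and matplotlib 3.10.9 were run under Python 3.11.15.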

Additional observations from a re-analysis of the deposited data

Results flagged for a closer look

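The height of the average early origin over its flanks at 15 to 20 kb changed in opposite directions between 30 and 40 min in the genotypes. It went from 0.276 to 0.255 in wild type, a change of -0.0208, and from 0.240 to 0.310 in *pol2-REL*, a change of 0.0696. With the *pol2-REL* G1 library for every sample the changes were -0.0212 and 0.0696. The difference between the genotypes was not tested, since there was 1 library per condition. Over the same time the flanks of early origins went from 0.952 to 1.12 in wild type, and their part in the change of height was not tested.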

How the results depend on the processing

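No paired analysis was possible because there was 1 library per condition, and for the same reason no library could be left out. The delay fraction (0.397) was 0.510 with the *pol2-REL* G1 library for every sample and 0.510 with the sum of both G1 libraries, 0.402 with a genome-wide mean of 1 or with single windows, 0.404 with the smoothed values and 0.360 without the 30 kb at each end. Windows above wild type at 30 min (2089) were 3201 at a difference of 0.05 and 1195 at 0.15. Windows below it (2282) were 1439 with the *pol2-REL* G1, 1445 with both G1 libraries, 3743 with a genome-wide mean, 4306 at 0.05, 657 at 0.15 and 717 with a long running median subtracted. Windows above the delay (1727) were 914 with the *pol2-REL* G1, 911 with both G1 libraries, 3034 at 0.05, 848 at 0.15 and 702 with the running median. Windows below the delay (1575) were 561, 576, 3727, 362 and 343 under these settings, and 3407 with a genome-wide mean. The early height ratio to wild type at 30 min (1.12) was 0.904 with flanks at 10 to 15 kb, 1.08 with the *pol2-REL* G1 and classes ranked again, 1.09 with a genome-wide mean or at origins without missing windows, and 1.16 with the smoothed values. The middle ratio (1.14) was 1.20 with a genome-wide mean, 1.21 at a prominence of 0.02 and 1.01 with the nearer flanks. The late ratio (1.37) was 1.20 with the smoothed values and 1.21 at a prominence of 0.02. The early gain in width (2.81 kb) was 1.99 kb with a genome-wide mean and 1.71 kb at origins without missing windows. The cause of these shifts was not tested. The early width gain was above 0 in 12 of 12 alternatives and the late ratio above 1 in 13 of 13. The median counting error of a departure was 0.0173 after running means over 5 kb, so at this depth a departure of less than 3 such errors could not be told from counting noise.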
